A study of Mus musculus with 10 samples.

Results

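Titin (Ttn), its protease calpain 3 (Capn3), obscurin-like 1 (Obsl1) and the myomesins Myom1, Myom2 and Myom3 were followed through RNA-seq libraries of EDL, psoas and soleus muscle from mice. These 6 genes were taken by name from the 16112 genes in the count tables, whose Ensembl identifiers were mapped to symbols with a GRCm38 annotation, and all of them were measured in every library. The study compared the muscles pairwise to ask how far the transcriptomes of a slow muscle (soleus) and of muscles classed as fast (EDL and psoas) follow that classification. EDL, the extensor digitorum longus of the lower leg, gave 3 libraries from animals of 42, 54 and 44 days. Psoas, a muscle of the hip and lower back, gave 3 libraries from animals of the same ages in the same order. Soleus, from the calf, gave 4 libraries from animals of 42, 44, 32 and 44 days.

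All animals had the strain label B6C3Fe a/a-Ttnmdm/J and were labelled wild type. The colony behind that strain carries the recessive mdm allele, a deletion within Ttn itself, and the sampled mice were homozygous for the intact gene per the study's methods. The EDL and psoas libraries 1 and 2 and soleus 1 were labelled male, the libraries from 44-day animals were labelled female, and soleus 3 had no sex label. Animal codes in the labels showed that psoas 1 and soleus 1, EDL 3 and soleus 2, and psoas 3 and soleus 4 were dissected from the same animals. The 10 libraries thus carried 7 animal codes, while the methods name fewer mice, and p-values that treat the libraries as independent do not allow for this.

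Titin is a giant protein that runs from the Z-disk to the M-band of the sarcomere and acts as a molecular spring and a ruler for the thick filament. At the M-band its end is tied to the thick filaments by myomesins, which cross-link neighbouring filaments, and by obscurin-family proteins such as obscurin-like 1, an adaptor that binds both titin and myomesin 1. Calpain 3 is a muscle-specific protease that is held on titin, and its loss causes a limb-girdle muscular dystrophy. Myomesin 1 is found in all striated muscle, the product of Myom2 (M-protein) is known from fast skeletal fibers and heart, and myomesin 3 has been described in slower fibers.

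Library totals lay between 12737971 and 50431713 counted reads. Reads of EDL 1, EDL 2, psoas 1 and psoas 2 had been quality-trimmed before alignment and those of the other libraries had not, so trimming, age and sex were partly tied to muscle. Per the study's supplement, the RNA integrity number was higher in every EDL library than in every psoas and soleus library. A smaller percentage of reads mapped in EDL 1, psoas 1, psoas 2 and soleus 1 than in the other libraries. The part of these differences in the levels was not tested. All 6 markers of skeletal muscle fibers were present in the table, with summed levels of 16700 to 27400 FPKM in EDL, 27800 to 34100 in psoas and 19800 to 20800 in soleus. The 6 were Acta1, Ckm, Des, Mb and the fast myosin heavy chains Myh4 and Myh1, without Myh2 or the slow Myh7. Their sum thus also follows fiber type, since Myh4 averaged 7320 FPKM in EDL, 8960 in psoas and 204 in soleus. Acta1 averaged 7920, 13700 and 13200 FPKM in the same order. All 6 tendon markers were also present, at summed levels of 278 to 312 FPKM in EDL, 10.5 to 28.9 in psoas and 39.1 to 186 in soleus. All 5 fibroblast markers summed to 281 to 471 FPKM in EDL, 86.0 to 134 in psoas and 96.1 to 168 in soleus. Levels here are FPKM, that is, CPM (counts relative to the library's total) after TMM scaling of the libraries, divided by the kilobases of the gene's merged exons.

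The 6 genes differ widely in size and position. In GRCm38, Ttn lies on the minus strand at chr2:76703980-76982547, and its 25 annotated transcripts merge into 116.82 kb of exon. Capn3 lies on the plus strand of the same chromosome at chr2:120456019-120504913, and Obsl1 lies on the minus strand at chr1:75479310-75506452. Myom1 is at chr17:71002633-71126856, Myom2 at chr8:15057653-15133541 and Myom3 at chr4:135759715-135815564, all on the plus strand. Each count sums every isoform of its gene, so the splice forms for which titin is known were not resolved.

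The 250 bases before the RefSeq start site (GRCm38.p6) of 4 of the genes are shown because they hold, or lack, the binding motif of MEF2, a transcription factor family of muscle genes, in genes that differed between muscles to very different degrees. Capitals mark matches to the MEF2 motif YTAWWWWTAR and to the E-box CANNTG, the site of MyoD-family factors. In these, Y is C or T, R is A or G, W is A or T and N is any base. Both were searched on both strands, with no match of either overlapping the other. The sequences are written in the direction of transcription.
Ttn, chr2:76982548-76982797, minus strand: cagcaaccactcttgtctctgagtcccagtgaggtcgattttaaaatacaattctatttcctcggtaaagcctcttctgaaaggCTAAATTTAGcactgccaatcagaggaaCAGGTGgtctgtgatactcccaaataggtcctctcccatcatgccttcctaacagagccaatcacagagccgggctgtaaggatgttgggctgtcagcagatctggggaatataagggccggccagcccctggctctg
Capn3, chr2:120463343-120463592, plus strand: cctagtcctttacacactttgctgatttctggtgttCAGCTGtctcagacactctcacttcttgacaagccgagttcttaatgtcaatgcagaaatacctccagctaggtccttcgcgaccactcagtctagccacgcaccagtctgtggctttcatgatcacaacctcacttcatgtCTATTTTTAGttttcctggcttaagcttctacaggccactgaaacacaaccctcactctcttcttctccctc
Myom1, chr17:71019307-71019556, plus strand: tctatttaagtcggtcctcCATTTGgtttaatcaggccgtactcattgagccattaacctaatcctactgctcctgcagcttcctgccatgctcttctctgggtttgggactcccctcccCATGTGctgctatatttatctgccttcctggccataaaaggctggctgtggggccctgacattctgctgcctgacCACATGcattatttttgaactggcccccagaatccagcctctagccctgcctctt
Myom3, chr4:135759465-135759714, plus strand: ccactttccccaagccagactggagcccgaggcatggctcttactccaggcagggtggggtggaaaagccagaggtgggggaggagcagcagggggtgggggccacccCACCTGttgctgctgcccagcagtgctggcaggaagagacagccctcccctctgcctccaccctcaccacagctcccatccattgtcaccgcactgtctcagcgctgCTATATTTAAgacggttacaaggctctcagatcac

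The MEF2 match began 166 bases before the start in Ttn, 72 bases before it in Capn3 and 35 bases before it in Myom3. Of 32851 mouse promoters of the same length, 2.92% held a MEF2 match and 66.2% held an E-box. Myom1 had 3 E-boxes and no MEF2 match in this window, and Obsl1 had 4 E-boxes and no MEF2 match. Matches had to fit the motif at every base, and a stretch of the Myom1 window that missed it only at its last base was not counted. A further Capn3 promoter in the same table had 1 E-box and no MEF2 match. Myom2 was not among the promoters. None of these windows held the letters TATAAA.

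Ttn was the most abundant of the 6 genes per kilobase and took between 2.6% and 6.44% of all counted reads of a library. In EDL it lay at 229, 227 and 238 FPKM in libraries 1 to 3. In psoas it lay at 342, 410 and 473 FPKM. In soleus the libraries stood at 296, 442, 319 and 404 FPKM. Every psoas and soleus library was above every EDL library, while psoas and soleus overlapped.

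The EDL mean of Ttn was 232 ± 5.91 FPKM (SD, n = 3), against 409 ± 65.5 in psoas (SD, n = 3) and 365 ± 69.3 in soleus (SD, n = 4). Despite the separation, the quasi-likelihood test of edgeR, adjusted by Benjamini-Hochberg over the 16112 genes, did not call the difference between psoas and EDL (log2 fold change 0.82, SE 0.34, adjusted p = 0.13). The log2 fold change was 0.66 for soleus against EDL (SE 0.32, adjusted p = 0.16). Soleus against psoas gave -0.16 (SE 0.31, adjusted p = 0.78), with a 95% interval of -0.84 to 0.52. The threshold was an adjusted p under 0.01 at any fold. The DESeq2 Wald test was the setting in which Ttn passed, with adjusted p = 0.00028 for psoas against EDL (range over 22 alternative settings 0.00028 to 0.88) and 0.0026 for soleus against EDL (range 0.0026 to 0.71).

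In bulk tissue, fewer muscle fibers in a sample and less Ttn RNA per fiber cannot be told apart. EDL held the most tendon and fibroblast marker RNA, and its summed fiber markers were 16700 and 17300 FPKM in EDL 1 and 2 and 27400 in EDL 3. Ttn hardly moved among those libraries, so Ttn relative to the summed fiber markers was lower in EDL 3 than in EDL 1 and 2. The single markers differed in this. Acta1, Myh4 and Ckm were clearly highest in EDL 3, and Mb was close in EDL 2 and 3 (1110 and 1140 FPKM). Des lay at 44.2, 80.4 and 52.4 FPKM in EDL 1 to 3, and Myh1 at 1660, 1330 and 1510. The part of these markers in the differences of Ttn was not tested.

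**Figure D1:**
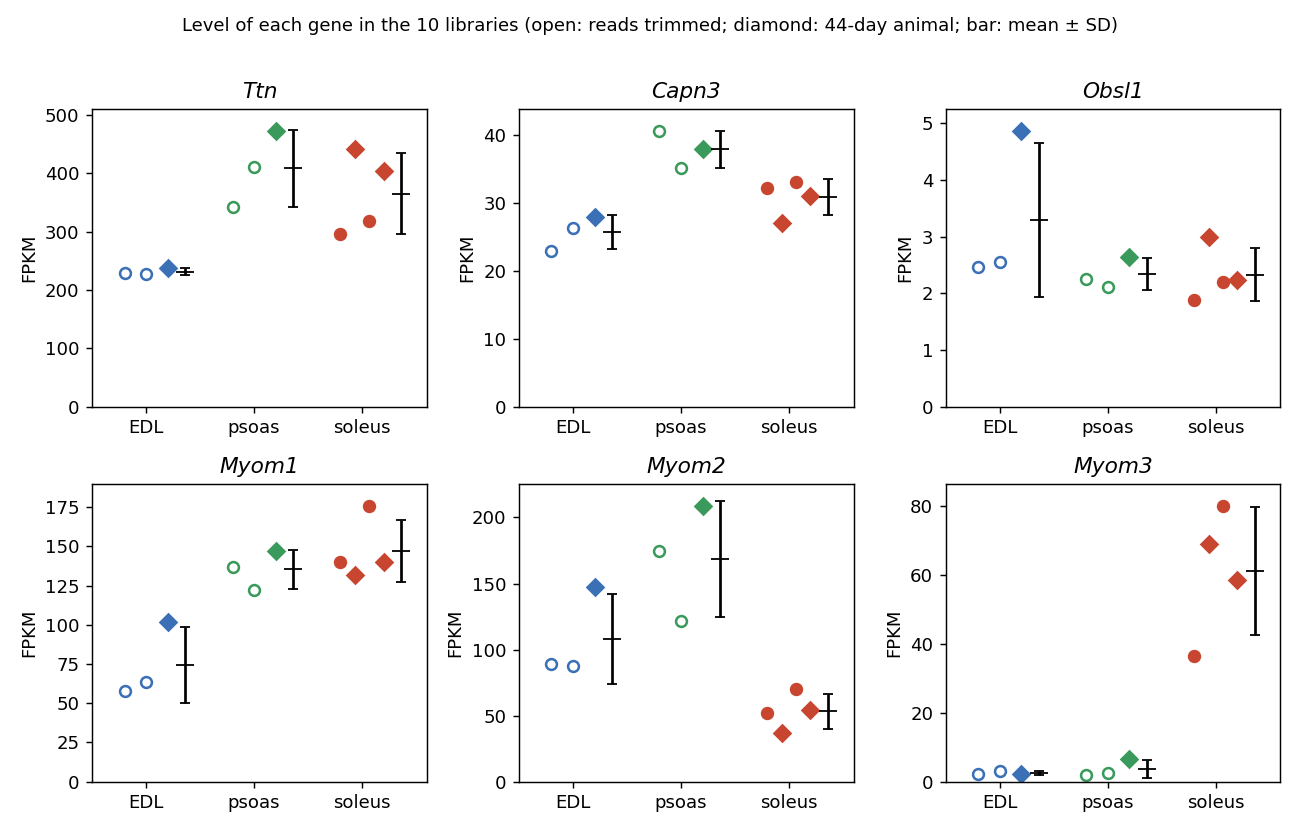
Level of each of the 6 genes in FPKM (y axis, from 0) in the EDL, psoas and soleus libraries (x axis), with open symbols for libraries whose reads were trimmed, diamonds for 44-day animals and black bars for mean ± SD. Ttn in EDL sits between 227 and 238 FPKM, below all other libraries, and Myom3 in soleus sits between 36.5 and 80.0 FPKM against at most 6.57 in EDL and psoas.

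Capn3 had the narrowest relative spread of the 6 genes within psoas and soleus, with coefficients of variation of 7.21% (n = 3) and 8.66% (n = 4). Its EDL libraries held 23.0, 26.3 and 28.0 FPKM. Psoas held 40.7, 35.2 and 38.0 FPKM. Soleus held 32.2, 27.1, 33.2 and 31.0 FPKM. Psoas was above both other muscles without overlap, and EDL and soleus overlapped.

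The fitted log2 fold change of Capn3 between psoas and EDL was 0.56 (SE 0.16, adjusted p = 0.045), which missed the threshold of 0.01. Soleus against EDL gave 0.26 (SE 0.15, adjusted p = 0.24), and soleus against psoas gave -0.30 (SE 0.15, adjusted p = 0.21). With the DESeq2 Wald test the adjusted p for psoas against EDL was 0.0027, the lowest of its alternatives, which reached up to 0.85. Exons of Capn3 share 386 bases (7.68% of its exon length) with Ganc, a neutral glucosidase gene on the same strand, so reads there could not be assigned to either by strand. Ganc had 6527 reads over all libraries against 39717 for Capn3.

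Obsl1 had the lowest mean level of the 6 genes in psoas and soleus, while Myom3 was lower in EDL. In EDL it lay at 2.47, 2.56 and 4.87 FPKM. In psoas it lay at 2.26, 2.11 and 2.65 FPKM. In soleus it lay at 1.89, 3.0, 2.2 and 2.23 FPKM. EDL 3 was above all other libraries, and every pair of muscles overlapped. The lowest Obsl1 count in a library was 234 reads, so counting error was small beside the spread between libraries.

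None of the 3 comparisons of Obsl1 passed. The log2 fold change was -0.49 for soleus against EDL (SE 0.25, adjusted p = 0.18) and -0.49 for psoas against EDL (SE 0.27, adjusted p = 0.25). Soleus and psoas means were 2.33 ± 0.473 FPKM (SD, n = 4) and 2.34 ± 0.278 FPKM (SD, n = 3), and the 95% interval of their log2 difference ran from -0.55 to 0.54. Relative to Ttn, Obsl1 separated EDL from the other muscles. Its log2 ratio to Ttn was -6.54, -6.47 and -5.61 in EDL, -7.24, -7.6 and -7.48 in psoas, and -7.29, -7.2, -7.18 and -7.5 in soleus. No EDL library overlapped the others on this scale.

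The mean log2 ratio of Obsl1 to Ttn was lower by 1.09 in soleus than in EDL, with an exact two-sided permutation p = 0.0571, the smallest that 4 against 3 libraries allow. It was lower by 1.23 in psoas than in EDL, with an exact permutation p = 0.1, the smallest for 3 against 3. Adjusted over the 18 tests of shares and ratios, these permutation values became 0.147 and 0.225. In soleus against psoas the ratio differed by 0.15 and the libraries overlapped (exact permutation p = 0.286, adjusted 0.45).

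**Figure D2:**
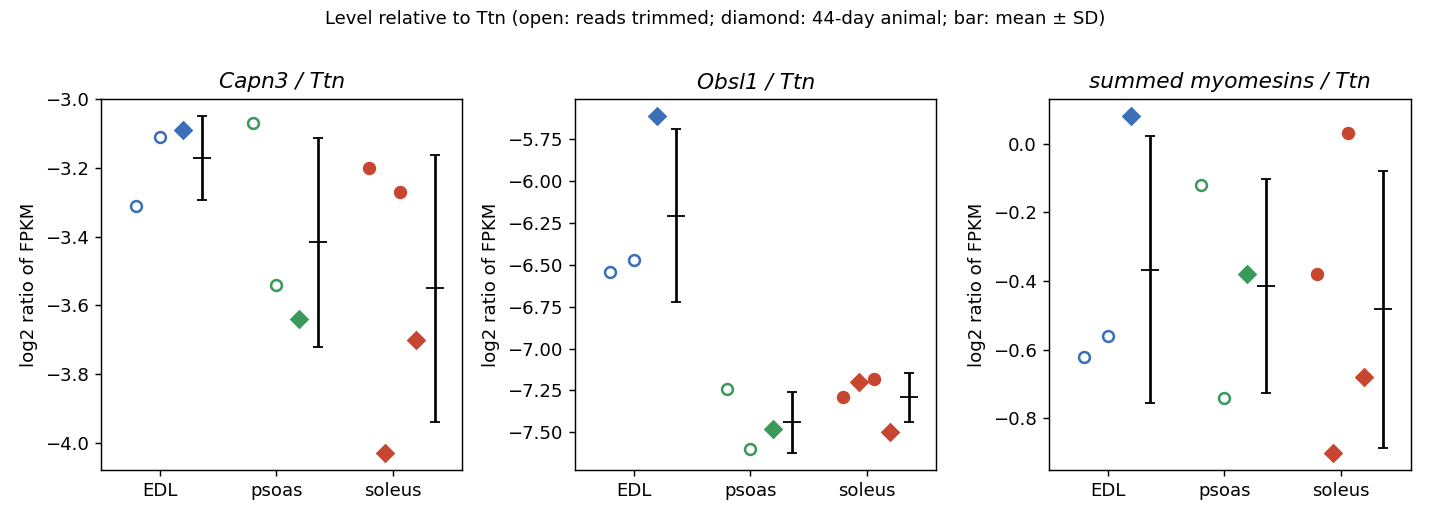
Log2 ratio of the FPKM of Capn3, Obsl1 and the summed myomesins to that of Ttn (y axes, which do not start at 0) in each library of the 3 muscles (x axis), with symbols as in the plot of levels and bars for mean ± SD. Obsl1 to Ttn lies between -6.54 and -5.61 in EDL and at -7.18 or lower in psoas and soleus, while the other ratios overlap between muscles.

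Myom1, the myomesin common to all striated muscle, was lower in EDL than in both other muscles. EDL held 57.6, 63.7 and 102 FPKM. Psoas held 137, 122 and 147 FPKM. Soleus held 140, 132, 176 and 140 FPKM. EDL 3 stood above the other EDL libraries but below all psoas and soleus libraries, and psoas and soleus overlapped.

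For Myom1, the log2 fold change was 0.98 in soleus against EDL (SE 0.24, adjusted p = 0.017), and psoas against EDL gave 0.86 (SE 0.25, adjusted p = 0.05), neither under 0.01. Between soleus and psoas the log2 fold change was 0.12 (SE 0.24, adjusted p = 0.79, 95% interval -0.40 to 0.63). Without EDL 3, Myom1 passed in soleus against EDL (log2 fold change 1.28, adjusted p = 0.0024, range over its alternatives 0.0002 to 0.53) and in psoas against EDL (1.16, adjusted p = 0.0065, range 0.0031 to 0.88). On the opposite strand, Myl12a, a myosin regulatory light chain gene, overlaps 207 bases of Myom1 exons (1.98%), and whether the counting used strand is not given in the sources used here.

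Myom2, which encodes the M-protein of fast fibers, was lowest in soleus. EDL held 89.1, 87.3 and 147 FPKM. Psoas held 175, 122 and 209 FPKM. Soleus held 51.7, 37.1, 69.9 and 54.1 FPKM. All soleus libraries were below all EDL and psoas libraries, and EDL and psoas overlapped.

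Against psoas, Myom2 fell in soleus, from 169 ± 44.1 FPKM (SD, n = 3) to 53.2 ± 13.4 FPKM (SD, n = 4), which was 3.17-fold lower (log2 fold change -1.66, SE 0.28, adjusted p = 0.0027). The soleus-to-EDL difference of -1.02 on the log2 scale (SE 0.28, adjusted p = 0.029) did not pass in edgeR, whereas DESeq2's Wald test gave an adjusted p = 0.0029 (range over alternatives 0.0029 to 0.22). Psoas against EDL gave 0.64 (SE 0.30, adjusted p = 0.19). The call against psoas was lost among untrimmed libraries alone (adjusted p = 0.031) and without the 44-day libraries (0.038), with a range over all alternatives of 1.2e-07 to 0.038. It was also narrowly lost without psoas 1 (0.01), psoas 3 (0.01) or soleus 4 (0.011), with log2 fold changes of -1.66, -1.48 and -1.67.

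Myom3 rose in soleus against both fast muscles and had the largest fold changes of the 6 genes. EDL held 2.34, 3.11 and 2.16 FPKM. Psoas held 1.91, 2.38 and 6.57 FPKM. Soleus held 36.5, 69.0, 80.0 and 58.5 FPKM. The lowest soleus library was far above the highest EDL or psoas library, and psoas 3 stood apart from the other psoas libraries.

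The soleus mean of Myom3 was 61.0 ± 18.6 FPKM (SD, n = 4), against 2.54 ± 0.508 in EDL (SD, n = 3) and 3.62 ± 2.56 in psoas (SD, n = 3). Against EDL this was 24.0-fold higher (log2 fold change 4.58, SE 0.48, adjusted p = 0.00016). Against psoas it was 16.9-fold higher (log2 fold change 4.08, SE 0.47, adjusted p = 0.00028). Fast-muscle libraries held at least 227 Myom3 reads each, so the fold changes did not rest on counts near 0. Among untrimmed libraries alone, with 1 EDL and 1 psoas library that were assumed to vary like soleus, the calls were lost, at an adjusted p that rounds to 0.01 against EDL (range over alternatives 8.9e-29 to 0.01) and 0.029 against psoas (range 1.2e-22 to 0.029).

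Psoas and EDL did not differ detectably in Myom3 (log2 fold change 0.50, SE 0.43, adjusted p = 0.47). The positive sign rested on psoas 3, since without that library the log2 fold change was -0.25. Within psoas, Myom3 followed the order of Myh2, the myosin heavy chain of type 2A fibers, which lay at 315, 453 and 884 FPKM in psoas 1 to 3. It did not follow that order in EDL, where Myh2 lay at 438, 405 and 281 FPKM. In soleus, Myh7, the slow myosin heavy chain, lay at 793, 1580, 950 and 1240 FPKM, so the lowest library was the same for Myom3 and Myh7 (soleus 1) and the highest was not (soleus 3 for Myom3, soleus 2 for Myh7).

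**Figure D3:**
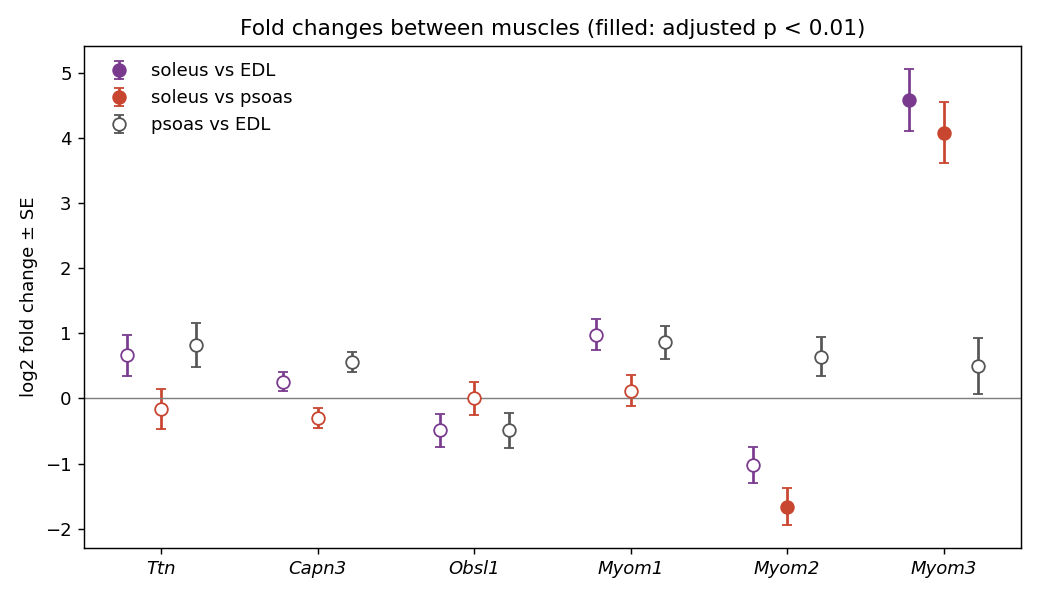
Fitted log2 fold change ± SE (y axis) of each gene (x axis) in the 3 comparisons, with filled circles for an adjusted p under 0.01. The filled circles are Myom3 at 4.58 and 4.08 in soleus against EDL and psoas, and Myom2 at -1.66 in soleus against psoas.

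The 3 comparisons share libraries with each other, so their counts are not independent. Of the 6 genes, 1 passed in soleus against EDL, in a comparison where 6.82% of all genes passed, 4.21% of them higher and 2.61% lower in soleus as shares of all genes. In soleus against psoas 2 passed, beside 6.59% of all genes, of which 3.41% were higher and 3.18% lower in soleus. In psoas against EDL 0 of the 6 passed in edgeR, where 2.2% of all genes did, 0.583% higher and 1.62% lower in psoas. In that comparison 3 of the 6 (Ttn, Capn3 and Myom1) had an unadjusted p under 0.05, as did 4679 of all 16112 genes. The DESeq2 Wald test called those 3 beside 1536 of all genes, and limma-voom called 0 of the 6 beside 367 of all genes. Libraries of the compared muscles did not overlap for 4 of the 6 genes in soleus against EDL, where 29.5% of all genes did not overlap. The corresponding numbers were 3 of 6 beside 25.8% in soleus against psoas and 3 of 6 beside 29.6% in psoas against EDL.

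The makeup of the myomesin family differed most plainly in soleus. Myom1 made up 38.6%, 41.3% and 40.5% of the summed myomesin FPKM in EDL, 43.8%, 49.5% and 40.5% in psoas, and 61.3%, 55.4%, 54.0% and 55.5% in soleus. Myom2 made up 59.8%, 56.7% and 58.6% in EDL, 55.6%, 49.5% and 57.7% in psoas, and 22.7%, 15.6%, 21.4% and 21.4% in soleus. Myom3 made up 1.57%, 2.02% and 0.857% in EDL, 0.607%, 0.969% and 1.81% in psoas, and 16.0%, 29.0%, 24.6% and 23.1% in soleus. Each soleus share lay outside the range of both fast muscles, whose own shares overlapped for all 3 genes.

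The share of Myom2 was 58.4% ± 1.59 in EDL (SD, n = 3), 54.3% ± 4.27 in psoas (SD, n = 3) and 20.3% ± 3.18 in soleus (SD, n = 4). Soleus was lower than EDL by 38.1 percentage points and lower than psoas by 34.0 points. Myom3 took a share 21.7 points higher in soleus than in EDL and 22.1 points higher than in psoas. Myom1 was higher in soleus by 16.4 and 11.9 points. All of these gave an exact two-sided permutation p = 0.0571, the smallest possible with 4 against 3 libraries, and 0.147 after adjustment over the 18 tests. The 3 shares of a library sum to 100%, so their differences are not independent of each other.

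**Figure D4:**
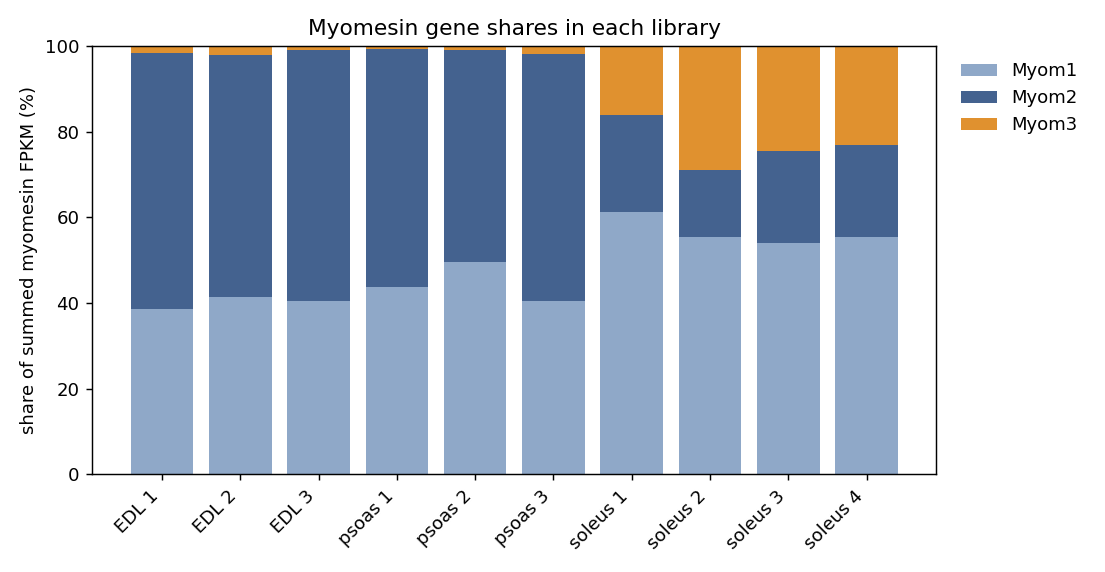
Share of Myom1, Myom2 and Myom3 in the summed FPKM of the 3 genes (y axis, 0 to 100%) in each of the 10 libraries (x axis). Myom3 fills 16.0% to 29.0% of the soleus bars and at most 2.02% of the EDL and psoas bars, and Myom2 shrinks to at most 22.7% in soleus.

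The summed myomesins relative to Ttn did not separate the muscles. The mean log2 ratio of the sum to Ttn was -0.37 ± 0.39 in EDL (SD, n = 3), -0.42 ± 0.31 in psoas (SD, n = 3) and -0.48 ± 0.40 in soleus (SD, n = 4), and the libraries of all muscles overlapped. No difference passed (exact permutation p of 0.686, 0.914 and 0.9 for soleus against EDL, soleus against psoas and psoas against EDL), and without the 44-day libraries the differences turned from -0.11, -0.06 and -0.05 to 0.42, 0.26 and 0.16. Capn3 to Ttn overlapped as well, at -3.17 ± 0.12 in EDL, -3.42 ± 0.30 in psoas and -3.55 ± 0.39 in soleus (SD, same n). Its largest difference, -0.38 between soleus and EDL, had an exact permutation p = 0.171.

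Levels also differed within a muscle between libraries from 44-day animals and the others. Ttn and Obsl1 were higher in every 44-day library than in every other library of the same muscle, in all 3 muscles. Obsl1 was 1.94-fold higher in EDL 3 than in the mean of EDL 1 and 2, with ratios of 1.21 in psoas and 1.28 in soleus. Ttn was 1.38-fold higher in the 44-day soleus libraries than in the others, with ratios of 1.26 in psoas and only 1.04 in EDL. Capn3 showed this order in 1 muscle only, EDL, and Myom3 in psoas only. Myom1 and Myom2 showed it in EDL and psoas and not in soleus, where the 44-day libraries were at 0.862 and 0.75 of the others and Capn3 was at 0.888. Over the 6 genes this made 12 of 18 pairs of gene and muscle, while of all genes with at least 10 CPM on average 61.0% showed the order in EDL, 37.7% in psoas and 18.4% in soleus. The 44-day libraries were all labelled female and carried the animal codes 765A or 765B. Age, sex and individual animal thus cannot be told apart here, and the 3 muscles are not independent repeats. In EDL and psoas the 44-day libraries were also the untrimmed libraries.

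Libraries that shared an animal can also be set side by side. In the animal of psoas 1 and soleus 1, the log2 ratio of soleus over psoas was -1.76 for Myom2 and 4.26 for Myom3. In that of psoas 3 and soleus 4, it was -1.95 for Myom2 and 3.16 for Myom3. In that of EDL 3 and soleus 2, the log2 ratio of soleus over EDL was -1.99 for Myom2 and 5.0 for Myom3. For both genes no soleus library overlapped EDL or psoas, so any pairing of libraries would give these directions. Ttn was close between soleus and psoas of the same animal, at -0.21 and -0.23, and at 0.89 between soleus and EDL. The within-animal values of Capn3 were -0.34 and -0.30 against psoas and -0.05 against EDL. Myom1 stood at 0.02 and -0.06 against psoas and at 0.37 against EDL. Obsl1 was lower in soleus in each of the 3 pairs, by log2 ratios of -0.26 and -0.25 against psoas and -0.70 against EDL. Its group means in soleus and psoas were nearly equal, at 2.33 and 2.34 FPKM. The EDL 3 pair and the psoas 3 pair had the codes 765A and 765B, and whether these stand for the same mouse is not given.

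Across the 10 libraries the log2 levels of the 6 genes ran together to different degrees, given here as description since libraries of a muscle share their group. Myom2 and Myom3 ran opposite, with Pearson r = -0.78. Capn3 and Myom1 had r = 0.75, and Ttn had r = 0.72 with Myom1 and 0.61 with Capn3. Obsl1 had weak coefficients with all other members, between -0.35 and 0.25.

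Among 6022 genes with a symbol and at least 10 CPM on average, the genes closest in pattern to each member were as follows, over the same 10 libraries. Myom1 was closest to Neb, the giant protein of the thin filament, with r = 0.989. Myom2 was closest to Tnnt3, the fast skeletal troponin T, with r = 0.976, followed by the splicing factor Mbnl1 with r = 0.964. Myom3 was closest to the growth factor gene Fgf1 (r = 0.988), and close to Ldhb, the heart-type lactate dehydrogenase subunit (r = 0.984). Capn3 was closest to Slc2a4, the insulin-responsive glucose transporter GLUT4, with r = 0.949. Ttn and Obsl1 had looser neighbours, led by Chp1 (r = 0.90) and Fig4 (r = 0.887).

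Ligands of titin at the Z-disk and I-band, a list of 12 genes, included genes with larger fold changes between muscles than Ttn. In soleus against EDL 6 rose and 1 fell, where 4.21% of all genes rose and 2.61% fell. The median log2 fold change there was 1.64 against -0.05 over all genes. In soleus against psoas 5 rose and 2 fell, where 3.41% of all genes rose and 3.18% fell, with a median of 1.58 against 0.02. Fhl2, a LIM protein that binds the I-band and M-band of titin, rose by 5.24 on the log2 scale against EDL and by 4.86 against psoas (adjusted p = 2.6e-05 and 5e-05). Ankrd2, a stretch-responsive ankyrin repeat protein of the N2A region, rose by 4.03 and 3.14. Cryab, a small heat shock protein that protects titin's spring, rose by 2.87 and 1.24. Its call held in 21 of 22 alternative settings against EDL and in 11 of 22 against psoas.

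The alpha-actinins, which anchor titin in the Z-disk, moved in opposite directions in soleus. Actn2 rose by 3.15 and 2.08 against EDL and psoas, and Actn3, the fast-fiber form, fell by 3.63 and 4.64. Csrp3 and Fhl1, both LIM proteins, rose against EDL by 3.99 and 2.25, and neither passed against psoas in edgeR (log2 fold changes 2.37 and 1.93, adjusted p = 0.059 and 0.013), where DESeq2 and limma-voom called Fhl1. Against EDL, the call of Csrp3 held in 9 of 22 alternative settings and that of Fhl1 in 12. Smyd2, a methyltransferase linked to the I-band, fell against psoas by 1.43. Tcap, the telethonin that caps titin's end at the Z-disk, had log2 fold changes of 1.02 and 0.50 (adjusted p = 0.018 and 0.21) and did not pass in edgeR, while DESeq2 and limma-voom called it against EDL.

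Between psoas and EDL 1 of these 12 ligands rose and 1 fell, where 0.583% of all genes rose and 1.62% fell. The median was 0.65 against 0.01 over all genes. Ankrd1, a stretch- and injury-responsive relative of Ankrd2, fell by 5.27 in psoas against EDL (adjusted p = 0.0014) and rose by 3.75 in soleus against psoas. Cryab rose by 1.62 in psoas against EDL (adjusted p = 0.005).

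M-band and thick filament partners, also 12 genes, gave more calls with DESeq2 than with edgeR or limma-voom. Limma-voom called 1 of the 12 in soleus against EDL, 3 in soleus against psoas and 1 in psoas against EDL. Of all genes it called 1206, 958 and 367 in that order. In soleus against EDL 1 fell and 11 did not pass in edgeR, where 6.82% of all genes passed. The median was 0.01 against -0.05 over all genes, and DESeq2 called 3 (Mybpc1, Ckm and Mybpc2) beside 2279 of all genes. In soleus against psoas 3 fell and 9 did not pass in edgeR, where 6.59% of all genes passed, with a median of -0.53 against 0.02. There 8 of the 12 had an unadjusted p under 0.05, beside 4574 of all 16112 genes. DESeq2 called 6 of the 12, beside 1950 of all genes. Of those 6, 5 were lower in soleus (Unc45b, Trim63, Ckm, Ank1 and Mybpc2). The other, Mybpc1, the slow form of myosin binding protein C, was higher. Mybpc2, the fast form of myosin binding protein C, fell in soleus by 3.40 against EDL and by 3.82 against psoas. Ckm, the muscle creatine kinase bound at the M-band, fell by 1.60 against psoas. Ank1, whose small muscle form links obscurin-family proteins to the sarcoplasmic reticulum, rose by 1.10 in psoas against EDL (adjusted p = 0.0081) and fell by 1.03 in soleus against psoas, and its call in psoas against EDL held in 9 of 22 alternative settings (adjusted p up to 0.48). In psoas against EDL the list had a median of 0.64 against 0.01 over all genes. There 8 of the 12 had an unadjusted p under 0.05, beside 4679 of all 16112 genes. DESeq2 called 3 (Ckm, Ank1 and Smyd1) beside 1536 of all genes. The titin-linked ubiquitin ligases Trim63, Trim54 and Trim55 had log2 fold changes of 0.74, 0.67 and 0.62 in psoas against EDL and did not pass in any comparison in edgeR, although DESeq2 called Trim63 in soleus against psoas.

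Regulators of titin splicing, 5 genes, included a pair that fell in soleus. Of all genes, 2.61% were lower in soleus against EDL and 3.18% against psoas. Rbfox1 fell by 1.26 against EDL and by 1.65 against psoas (adjusted p = 0.0013 and 0.00027), and Mbnl1 fell by 0.86 against psoas (adjusted p = 0.0068). The call of Mbnl1 held in 12 of 22 alternative settings, and each call of Rbfox1 in 20. The list's median was -0.60 in soleus against EDL, -0.86 in soleus against psoas and 0.39 in psoas against EDL, beside -0.05, 0.02 and 0.01 over all genes. In psoas against EDL 0 of the 5 passed in edgeR, where 2.2% of all genes did. An unadjusted p under 0.05 was reached by 3 (Ptbp1, Rbm24 and Rbm20), beside 4679 of all 16112 genes. DESeq2 called 2 of them (Ptbp1 and Rbm20) beside 1536 of all genes, and limma-voom called 0 beside 367. Rbm20, the main known repressor of titin exons, had 1.34 ± 0.418 FPKM in EDL, 4.33 ± 2.64 in psoas and 2.14 ± 0.626 in soleus (SD, n of 3, 3 and 4), and its log2 fold change of 1.69 between psoas and EDL had an adjusted p = 0.023.

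The calpain system beyond Capn3, 9 genes, had 0 genes that passed in edgeR or limma-voom in each of the 3 comparisons. In edgeR 6.82%, 6.59% and 2.2% of all genes passed in soleus against EDL, soleus against psoas and psoas against EDL. Limma-voom called 1206, 958 and 367 of all genes in that order. An unadjusted p under 0.05 was reached by 5, 1 and 2 of the 9 in the same order. Of all 16112 genes 5646, 4574 and 4679 reached it. DESeq2 called 2 (Cast and Capn6), 0 and 0 of the 9, beside 2279, 1950 and 1536 of all genes. The medians of the calpain list were -0.04, 0.16 and 0.05 in that order, against -0.05, 0.02 and 0.01 over all genes. Cast, which encodes the calpain inhibitor calpastatin, was at 0.76 on the log2 scale in soleus against EDL (adjusted p = 0.026). Capn1 and Capn2, the ubiquitous calpains, stood at 4.93 and 5.52 FPKM in EDL on average, below Capn3 in that muscle.

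**Figure D5:**
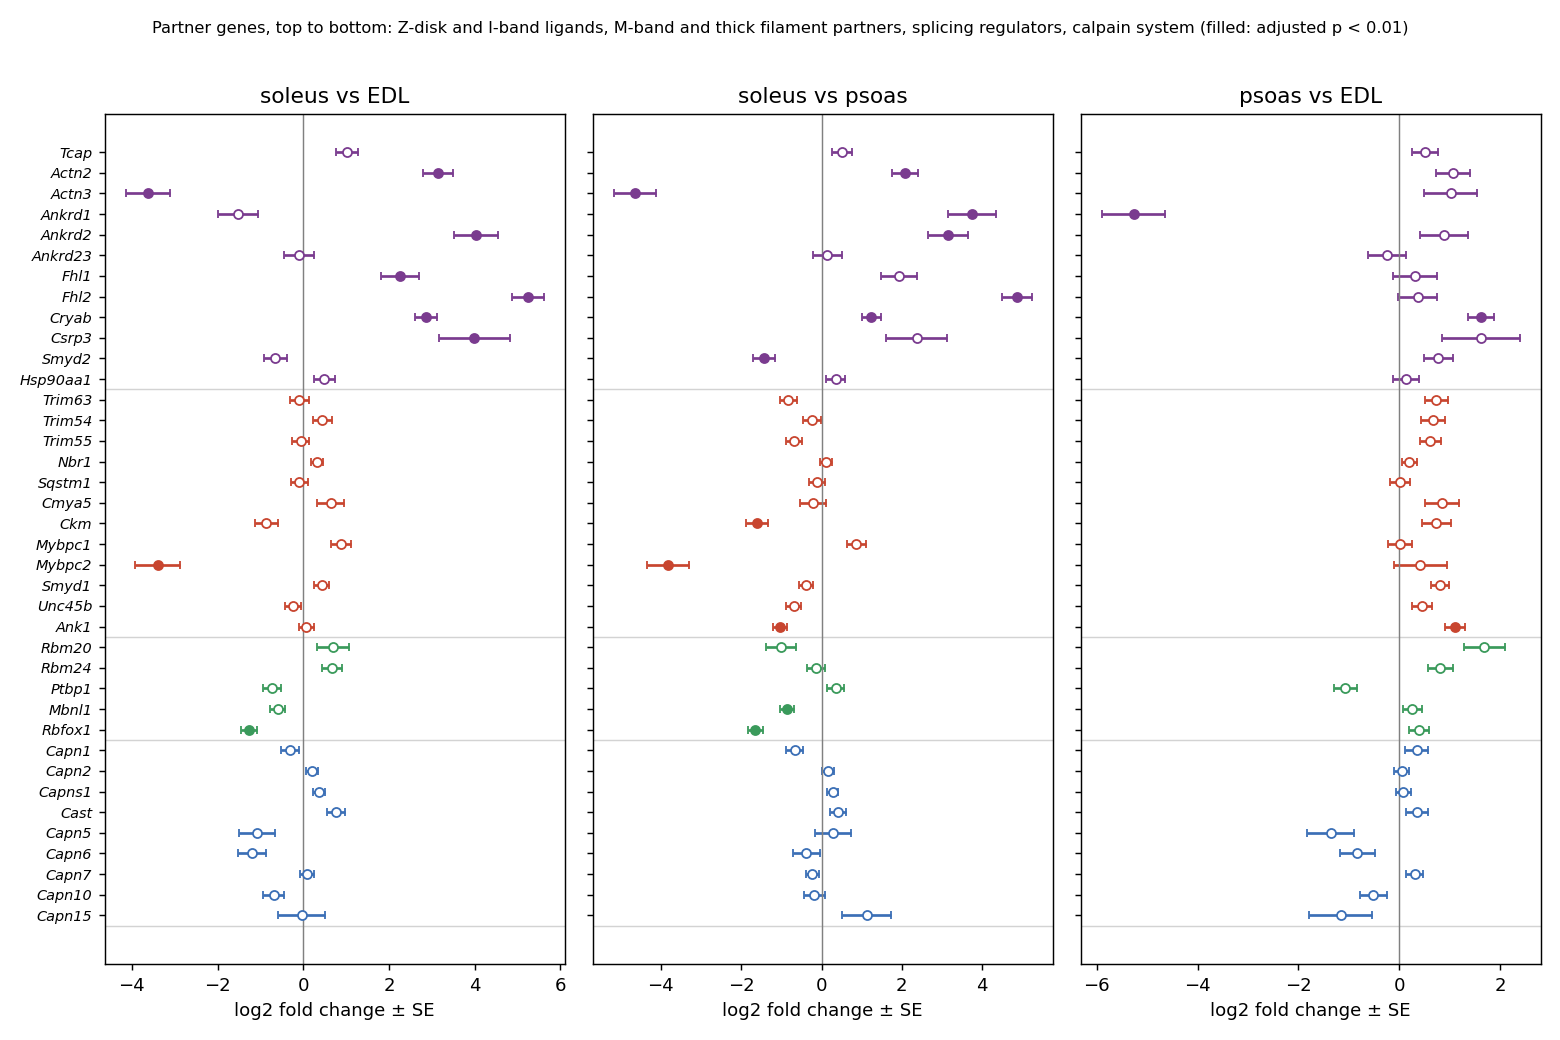
Fitted log2 fold change ± SE (x axes) of the 38 partner genes (y axis), grouped from top to bottom as Z-disk and I-band ligands, M-band and thick filament partners, splicing regulators and the calpain system, with filled circles for an adjusted p under 0.01. Filled circles are most frequent in the top group, reach 5.24 for Fhl2 in soleus against EDL, and are missing from the calpain group.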

How the data were processed

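Total RNA of 10 muscle samples was prepared with a stranded ribosomal-depletion kit. Per the study's methods, the authors trimmed reads of low quality with Trimmomatic 0.32, aligned pairs with TopHat2 2.1.1 to GRCm38.p4 and deposited whole-number counts per Ensembl gene, after removing genes with 10 or more reads in fewer than 3 libraries. The strand setting of the counting and the sequencing run of each library are not given in the sources used here. Symbols and exon lengths came from GENCODE M21 (GRCm38), and 16032 of 16112 identifiers had a symbol.

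The deposited counts were fitted with edgeR 4.0.16 (quasi-likelihood test, TMM scaling, 1 fit over all libraries, no covariate) in R 4.3.3, with Benjamini-Hochberg adjustment and a threshold of 0.01. The authors used DESeq2 with the same threshold, adding a fold of 2 for their gene lists. They judged single sarcomere genes such as Ttn and Capn3 by the adjusted p alone. Here DESeq2 1.42.0 and limma-voom 3.58.1 were alternatives, beside other scalings, filters, covariates and left-out libraries. Fits were tested on simulated data. Shares and ratios were compared by exact permutation tests (scipy 1.17.1). Depth ran from 12737971 to 50431713 counts per library. The genes and partner lists were chosen with earlier results of these data known. Genes named are the 6, the lists' members, overlapping genes, myosin heavy chains and the 5 genes closest to each. Marker lists other than those of fibers, tendon and fibroblasts are given in the closing section.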

Additional observations from a re-analysis of the deposited data

How the results depend on the processing

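Of the member fold changes under the alternative settings, 401 kept their direction and side of the threshold, 14 newly passed, 7 no longer passed and 10 changed sign. The cause was not tested for any change below. The DESeq2 Wald test newly passed Ttn (log2 fold change 0.65), Myom1 (0.98) and Myom2 (-1.02) in soleus against EDL and Ttn (0.84), Capn3 (0.58) and Myom1 (0.88) in psoas against EDL. Limma-voom newly passed Myom1 in soleus against EDL (1.0), also with the animal code as random effect (0.94). A threshold of 0.05 added Myom1 (0.98) and Myom2 (-1.02) in soleus against EDL and Capn3 (0.56) and Myom1 (0.86) in psoas against EDL.

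Untrimmed libraries alone no longer passed Myom3 (4.77 against EDL, 3.20 against psoas) or, against psoas, Myom2 (-1.99), and Myom2 against psoas did not pass without the 44-day libraries (-1.28, an alternative chosen after seeing the data). Myom1 in soleus against psoas changed sign with trimming as covariate (-0.20), in untrimmed libraries (-0.01) and with sex as covariate without soleus 3 (-0.09), and Myom3 in psoas against EDL without the 44-day libraries (-0.37). Leaving out 1 library at a time gave Myom1 from 0.78 to 1.28 in soleus against EDL, from 0.00 to 0.18 in soleus against psoas (-0.00 without soleus 3) and from 0.68 to 1.16 in psoas against EDL. It gave Obsl1 from -0.15 to 0.09 and Myom2 from -1.84 to -1.48 in soleus against psoas, and Myom3 from -0.25 to 0.78 in psoas against EDL.

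Deviations from the muscle means correlated at -0.322 to 0.533 between libraries of the same number, with 4 of 9 pairs over 0.1 (EDL 3 and psoas 3 highest), so the numbers were not taken as pairs, and at 0.20 to 0.468 between libraries of the same animal. With a replicate block over libraries 1 to 3, genes called fell from 1099 to 590, from 1062 to 545 and from 355 to 148 (soleus against EDL, soleus against psoas, psoas against EDL), and the log2 fold change of Obsl1 in soleus against psoas was 0.02. The block changed no other member's sign or call.

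In the same order, genes called were 2279, 1950 and 1536 with DESeq2, 383, 586 and 693 with trimming as covariate, 560, 264 and 156 without the 44-day libraries, and 2995, 2340 and 1789 at a threshold of 0.05. Untrimmed libraries gave 48 and 33, and for psoas against EDL 0 in edgeR (1172 at an unadjusted p under 0.05), with 1 library a muscle there. Psoas against EDL gave 974 with sex as covariate and 153 in a fit of the 2 muscles alone. Leaving out 1 library gave 394 to 1870, 508 to 1199 and 61 to 1135, with both extremes of the first from EDL libraries (EDL 1 and EDL 3). Upper-quartile scaling shifted the median of all genes in soleus against EDL to -0.141 and changed no member's call.

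For shares and ratios, 16 of the alternatives changed sign. In untrimmed libraries the psoas minus EDL share was -0.0788 points for Myom1 and 0.954 for Myom3, and the soleus to psoas difference of Capn3 to Ttn was 0.09 (0.07 without the 44-day libraries). The myomesins to Ttn became 0.42, 0.26 and 0.16 in the 3 comparisons without the 44-day libraries. Leaving out 1 library gave Capn3 to Ttn in soleus against psoas from -0.25 to 0.04, and the myomesins to Ttn from -0.28 to 0.11, -0.23 to 0.08 and -0.19 to 0.18.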

Other observations

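The myosin heavy chains gave the fiber type of each muscle beside the titin and M-band genes. Myh4, the type 2B chain, stood at 7320 ± 1560 FPKM in EDL (SD, n = 3), 8960 ± 569 in psoas (SD, n = 3) and 204 ± 124 in soleus (SD, n = 4). Myh7, the slow chain, stood at 5.98 ± 6.71, 0.711 ± 0.402 and 1140 ± 345 FPKM in the same order. Myh2, the type 2A chain, was present throughout, at 375 ± 82.7, 550 ± 297 and 1470 ± 163 FPKM.

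Markers of other cell types were low beside those of fibers. Summed FPKM in EDL, psoas and soleus ran at 22.2 to 48.3, 18.9 to 39.3 and 32.1 to 59.5 for all 4 adipocyte markers, and at 11.3 to 18.0, 5.57 to 23.1 and 10 to 12.8 for all 4 nerve and Schwann cell markers. The sums were 12.7 to 22.9, 12.6 to 15.8 and 16.5 to 19.2 for all 3 endothelial markers, and 4.64 to 11.6, 1.67 to 4.91 and 4.24 to 5.94 for all 3 macrophage markers. All 3 erythroid markers summed to 3.34 to 50.3, 10.7 to 94.9 and 1.99 to 18.0, and all 3 smooth muscle markers to 9.61 to 18.8, 6.04 to 14.2 and 12.1 to 18.4. Of 4 cardiac markers 3 were in the table, with sums of 1.53 to 5.11, 0.703 to 0.826 and 172 to 403. Nearly all of the soleus sum was Myh6, at 171 to 402 FPKM, while Tnni3 and Tnnt2 reached at most 0.435 and 0.442 FPKM there. Skeletal muscle also expresses Myh6, and no value here was tested against the members.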
